A study of Mus musculus with 34 samples.

Results

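The B cell transcription factors described here are 7 genes, Pax5, Ebf1, Spib, Bach2, Pou2af1, Mef2c and Bcl11a, chosen by name and matched by symbol to the Ensembl IDs of the deposited counts, out of 54532 genes in all. All 7 matched 1 ID each. Blood messenger RNA was sequenced in 30 wild-type mice, 1 library to a mouse: 7 mice given ALY688 with LPS (ALY688+LPS), 4 given LPS, 10 given ALY688 and 9 given phosphate-buffered saline (PBS). LPS is lipopolysaccharide, the endotoxin of Gram-negative bacteria, and ALY688 is an agonist of the adiponectin receptor, per the series title. The genotype is the same wild type in every group, and the labels used here give no dose, sampling time, sex, age or strain. Not analysed here were mouse 10 of the PBS group and mice 3, 4 and 5 of the LPS group. The series text speaks of plasma for the search for markers of ALY688 and of whole blood for the LPS model, while every sample is labelled blood. Mice with and without LPS may therefore come from separate experiments, so an effect of LPS and one of the experiment cannot be told apart.

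Development and maintenance of B cells depend on a network of transcription factors. EBF1 and PAX5 specify and hold the lineage in precursors and are kept on in mature B cells, where PAX5 activates genes of the B cell receptor and its co-receptors and represses genes of other lineages. SPIB, MEF2C, BCL11A and the co-activator encoded by Pou2af1, known as OCA-B, act in mature B cells on receptor signalling and proliferation, while BACH2 restrains the passage to plasma cells, in which PAX5, EBF1 and BACH2 are shut off. Several of the factors are not confined to B cells: SPIB and BCL11A also serve plasmacytoid dendritic cells, BACH2 serves T cells, and MEF2C is expressed in myeloid and megakaryocytic cells.

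Counts summed to between 9554964 and 17338214 per library, and globin transcripts, the haemoglobin messages of young red cells, took 18.4% to 64.3% of them. Levels are given as CPM, counts scaled to library size by TMM, which corrects for differences in library composition, and differences as log2 fold changes with their standard error (SE). On this scale 3 counts stood at 0.0688 to 0.904 CPM. The factors lay above that floor in every library, with 20 counts (Ebf1 in LPS mouse 7) to 2887 counts (Spib in ALY688 mouse 4). In 6 libraries, of PBS mice 5, 6 and 9, ALY688 mouse 7 and ALY688+LPS mice 6 and 8, fewer than 16000 genes had a count.

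Positions are those of GENCODE M21 on the mouse build GRCm38. Pax5 (ENSMUSG00000014030, paired box family) lies on the minus strand at chr4:44524757-44710487 and Bach2 (ENSMUSG00000040270, basic leucine zipper family) on the plus strand at chr4:32238804-32586108. Ebf1 (ENSMUSG00000057098, COE family) lies on the plus strand at chr11:44617317-45008091 and Bcl11a (ENSMUSG00000000861, C2H2 zinc finger family) on the plus strand at chr11:24078056-24174123. Spib (ENSMUSG00000008193, ETS family) lies on the minus strand at chr7:44525993-44532071. Pou2af1 (ENSMUSG00000032053) lies on the plus strand at chr9:51213708-51240080 and Mef2c (ENSMUSG00000005583, annotated to the SRF family) on the plus strand at chr13:83504034-83667080. The deposited annotation gives a transcription factor family to 6 of the 7, all but the co-activator gene Pou2af1, and to 1469 genes in all. The bodies of antisense genes overlap those of Pax5, Ebf1, Bach2 and Bcl11a, and the bodies of same-strand genes overlap those of Pax5, Bach2 and Pou2af1. Whether their exons overlap was not examined. Without a stated strand setting, antisense reads from a shared exon cannot be told apart from those of the factor.

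Bases upstream of the RefSeq start site are shown for the 3 most abundant factors per kilobase, Spib, Pou2af1 and Pax5. They come from the RefSeq table of build GRCm38.p6, at chr7:44532072-44532321 on the minus strand for Spib, chr9:51213440-51213689 on the plus strand for Pou2af1 and chr4:44710695-44710944 on the minus strand for Pax5. The bases for Spib adjoin the gene position given above, and those for Pou2af1 and Pax5 stop short of it. Bases 11 to 40 after the start were found in 1 of 3 GENCODE transcripts of Spib, 0 of 2 of Pou2af1 and 0 of 20 of Pax5. Capitals mark a stretch that holds a pair of overlapping matches to CCCNNGGG, the palindrome known as the core that EBF1 binds.
Spib: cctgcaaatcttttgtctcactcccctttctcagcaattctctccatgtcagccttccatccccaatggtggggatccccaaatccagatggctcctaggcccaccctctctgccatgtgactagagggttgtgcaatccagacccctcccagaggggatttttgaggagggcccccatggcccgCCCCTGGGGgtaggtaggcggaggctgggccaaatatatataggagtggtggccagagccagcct
Pou2af1: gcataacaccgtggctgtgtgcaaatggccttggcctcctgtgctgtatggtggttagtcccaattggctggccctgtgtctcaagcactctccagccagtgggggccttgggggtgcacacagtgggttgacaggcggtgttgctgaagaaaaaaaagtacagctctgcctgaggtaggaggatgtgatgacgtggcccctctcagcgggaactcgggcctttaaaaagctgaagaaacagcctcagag
Pax5: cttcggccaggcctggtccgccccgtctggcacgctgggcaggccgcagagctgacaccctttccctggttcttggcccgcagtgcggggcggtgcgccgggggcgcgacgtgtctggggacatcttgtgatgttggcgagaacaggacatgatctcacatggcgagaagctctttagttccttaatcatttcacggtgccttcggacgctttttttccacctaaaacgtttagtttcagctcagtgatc
In 10 windows of 250 bases before to 50 bases after a start site, covering all 7 factors, 5 motifs were searched on both strands. CCCNNGGG, which reads alike on both strands, was present in 1 of the 10 windows, that of Spib, as CCCCTGGG at positions -65 to -58 and CCCTGGGG at -64 to -57 from the start, against 13.7% of all 32851 windows. None of the 10 windows held the octamer ATGCAAAT (1.74% of all windows), through which OCA-B acts with its POU partners, the PU box GAGGAAGT (3.20%), the core TGACTCA of Maf recognition elements (5.20%) or the E-box CAGGTG (20.2%). A match is a description of letters and not a site of binding.

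Per kilobase of annotated exon, Spib and Pou2af1 were the most abundant of the factors and Bcl11a and Ebf1 the least. In LPS mice the mean level was 9.24 ± 4.58 CPM per kb for Spib, 6.25 ± 1.75 for Pou2af1, 1.72 ± 0.754 for Pax5, 1.02 ± 0.113 for Mef2c, 0.578 ± 0.243 for Bach2, 0.464 ± 0.174 for Bcl11a and 0.400 ± 0.151 for Ebf1 (SD, n = 4). In PBS mice it was 33.0 ± 12.6 CPM per kb for Spib, 32 ± 11.1 for Pou2af1, 10.8 ± 4.12 for Pax5, 3.96 ± 0.585 for Mef2c, 3.20 ± 1.22 for Bach2, 2.21 ± 0.879 for Ebf1 and 1.93 ± 0.647 for Bcl11a (SD, n = 9). The order was thus the same in both groups except that Ebf1 and Bcl11a changed places, and these neighbours lay within each other's SD. Spib and Pou2af1 did so in PBS mice, while in LPS mice the mean of Spib lay above that of Pou2af1 by more than the SD of Pou2af1 but by less than that of Spib. Across groups, each of the 7 factors had its lowest mean CPM in LPS mice, then ALY688+LPS mice, then PBS mice, and its highest in ALY688 mice, but the 2 groups with LPS overlapped for every factor, as did the 2 groups without.

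**Figure D1:**
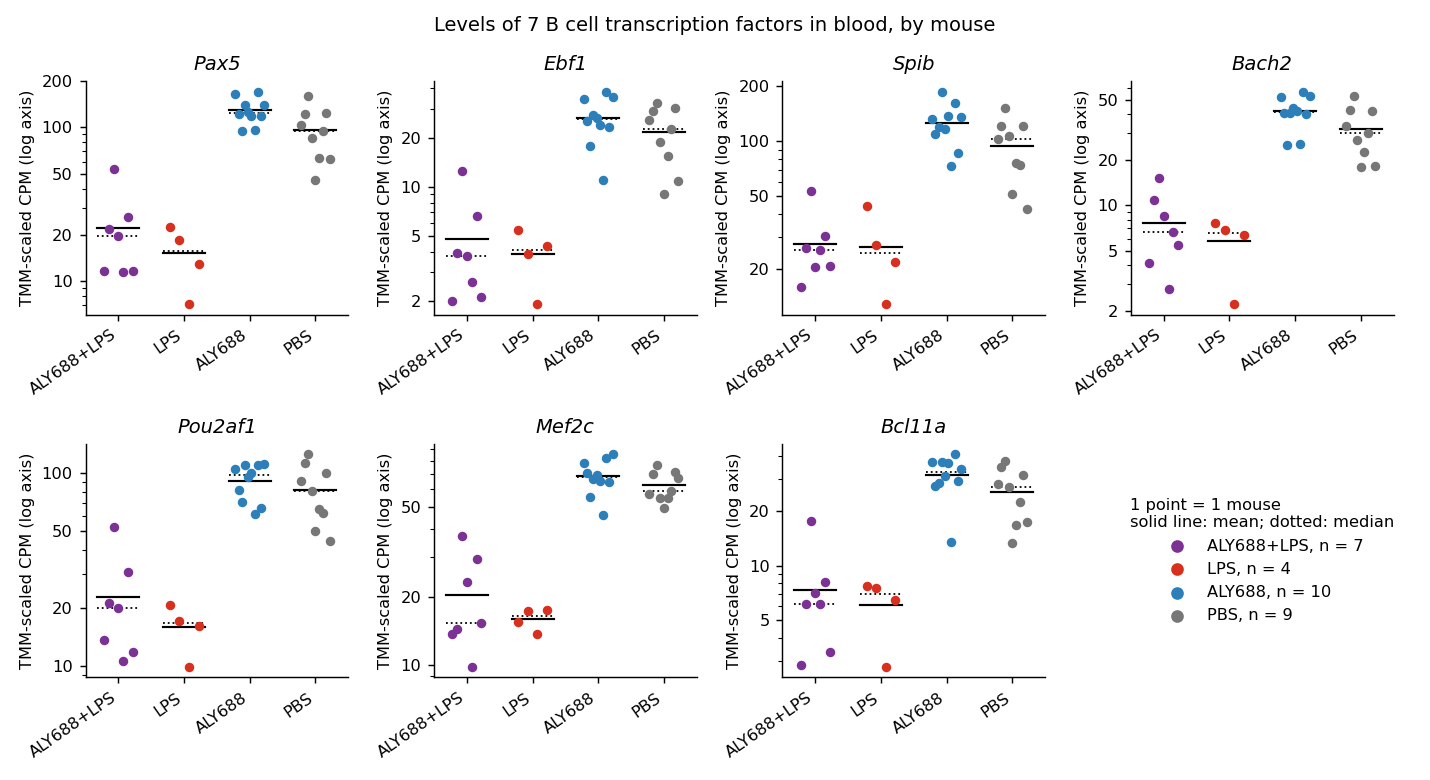
Level of each factor in TMM-scaled CPM (log axis) in every mouse, by group, with the group mean as a solid line and the median as a dotted line. Group means with LPS lie below those without it for all 7 factors. LPS and PBS mice overlap for Spib, ALY688+LPS and ALY688 mice for Ebf1 and Bcl11a, and ALY688+LPS mouse 4 reaches the PBS range for all but Bach2 and Mef2c.

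The comparison of LPS with PBS mice asks how the blood transcriptome stands in the LPS model. All 7 factors were lower in LPS mice, by 3.57-fold (Spib) to 6.28-fold (Pax5), and all 7 passed an adjusted p below 0.05 in the quasi-likelihood test of edgeR, adjusted over all genes tested. Of 12353 genes tested, 38.7% passed in either direction and 17.9% passed as lower. How many of all genes had groups without overlap was not counted, in this comparison or the later ones. The median log2 fold change of the factors was -2.36, beside -0.04 over all genes tested. In bulk blood, fewer B cells and less of these transcripts per B cell cannot be told apart.

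Pax5 had 22.5, 18.4, 7.11 and 13 CPM in LPS mice 2, 6, 7 and 8, against 45.5 CPM at the lowest, 95.5 at the median and 161 at the highest in PBS mice. Every LPS mouse lay below every PBS mouse. The log2 fold change was -2.65 ± 0.38 (SE), a 6.28-fold lower level (edgeR adjusted p = 5.15e-05). Ebf1, which acts upstream of Pax5 in B cell precursors, had 5.44, 3.87, 1.92 and 4.37 CPM in LPS mice, against 9.04, 22.6 and 32.5 CPM (lowest, median, highest) in PBS mice. The groups did not overlap, and the log2 fold change was -2.47 ± 0.36 (edgeR adjusted p = 7.04e-05).

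Bach2, the repressor that delays plasma cell differentiation, had 7.61, 6.85, 2.21 and 6.30 CPM in LPS mice, against 17.8, 30.0 and 53.0 CPM (lowest, median, highest) in PBS mice. Again no LPS mouse reached the PBS range, and the log2 fold change was -2.46 ± 0.36 (edgeR adjusted p = 6.10e-05). Pou2af1, which encodes the octamer co-activator needed for germinal centres, had 20.6, 17.1, 9.90 and 16.1 CPM in LPS mice, against 44.5, 80.7 and 125 CPM in PBS mice. The groups stood apart, with a log2 fold change of -2.36 ± 0.31 (edgeR adjusted p = 2.68e-05).

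Bcl11a, a zinc finger factor required for B cell development and best known for silencing fetal globin, had 7.70, 7.54, 2.79 and 6.44 CPM in LPS mice, against 13.3, 27.1 and 37.7 CPM (lowest, median, highest) in PBS mice. The groups did not overlap, and the log2 fold change was -2.05 ± 0.31 (edgeR adjusted p = 9.83e-05). Mef2c, a MADS-box factor that acts downstream of the B cell receptor, had 15.6, 17.3, 13.7 and 17.6 CPM in LPS mice, against 49.7, 59.1 and 76.7 CPM in PBS mice. Its SD was the smallest of the 7 relative to the mean in both groups, and its log2 fold change of -1.96 ± 0.17 came with the smallest adjusted p (edgeR, 6.50e-07).

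Spib, an ETS factor close to PU.1, had the smallest difference. It had 44.1, 27.1, 12.9 and 21.9 CPM in LPS mice, against 42.6, 102 and 153 CPM (lowest, median, highest) in PBS mice. LPS mouse 2 lay within the PBS range and the other 3 LPS mice below it. The log2 fold change was -1.84 ± 0.38 (edgeR adjusted p = 0.00115). LPS mouse 7 had the lowest level of the 4 for all 7 factors.

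Globin transcripts took 18.4% to 43.7% of the counts in LPS mice and 45.1% to 64.3% in PBS mice, without overlap. Their part in these differences was not tested. The call in LPS against PBS depended on the scaling. With library totals alone, which moved the median log2 fold change of all genes to 1.04, the factors kept negative log2 fold changes (-0.84 for Spib to -1.63 for Pax5) and Pax5 alone passed (edgeR adjusted p = 0.0450). With the globin percentage of each library as a covariate the log2 fold changes stayed negative, Pax5 at -4.48. Since the globin shares of the groups did not overlap, that fit cannot separate globin from the group.

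The same contrast can be read in mice that all received ALY688, by setting ALY688+LPS against ALY688 mice, which shares no library with LPS against PBS. All 7 factors were again lower, by 3.37-fold (Mef2c) to 5.78-fold (Pax5), and all 7 passed, beside 53.0% of 12266 genes in either direction, 26.6% as lower and 26.4% as higher. The median log2 fold change of the factors was -2.20, beside -0.05 over all genes tested. Pax5 had 11.4, 19.7 and 53.8 CPM (lowest, median, highest) in ALY688+LPS mice, against 94.4, 124 and 171 CPM in ALY688 mice, with no overlap. Its log2 fold change was -2.53 ± 0.30 (edgeR adjusted p = 8.29e-07).

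Ebf1 had 2.01, 3.79 and 12.5 CPM in ALY688+LPS mice, against 11, 25.9 and 38.2 CPM in ALY688 mice, and its log2 fold change was -2.49 ± 0.37 (edgeR adjusted p = 1.75e-05). Bcl11a had 2.86, 6.19 and 17.7 CPM in ALY688+LPS mice, against 13.5, 32.5 and 40.8 CPM in ALY688 mice, and its log2 fold change was -2.11 ± 0.31 (edgeR adjusted p = 1.83e-05). For both, 6 of the 7 ALY688+LPS mice lay below all 10 ALY688 mice, and the exception was ALY688+LPS mouse 4. The other 4 factors did not overlap between these groups, and the share of all genes without overlap was not counted. Bach2 had a log2 fold change of -2.46 ± 0.30, Spib of -2.20 ± 0.24, Pou2af1 of -2.0 ± 0.29 and Mef2c of -1.75 ± 0.23, with edgeR adjusted p-values between 2.15e-07 and 1.34e-05. Globin transcripts took 26.3% to 54.3% of the counts in ALY688+LPS mice and 42.2% to 60.8% in ALY688 mice.

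No factor passed for ALY688, without or with LPS. In ALY688 against PBS mice, 0 of 11708 genes passed, the percentage called being 0, and 1250 had an unadjusted p below 0.05 (edgeR). All 7 factors had a positive log2 fold change without passing, 0.42 ± 0.19 for Pax5, 0.41 ± 0.21 for Spib, 0.38 ± 0.19 for Bach2, 0.29 ± 0.18 for Bcl11a, 0.26 ± 0.22 for Ebf1, 0.15 ± 0.18 for Pou2af1 and 0.12 ± 0.11 for Mef2c, with edgeR adjusted p-values of 0.442 or more. The 95% interval, taken with the normal quantile and so too narrow, ran from 0.05 to 0.80 for Pax5 and from -0.10 to 0.34 for Mef2c. The positive sign was not particular to the factors, whose median was 0.29. Of the 16 B cell surface genes described below, 16 were positive, with a median of 0.29, and so were 14 of 16 other B lineage factors. Without scaling factors the median over all genes in this comparison was 0.50.

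In ALY688+LPS against LPS mice, 0 of 12741 genes passed, the percentage called being 0, and 464 had an unadjusted p below 0.05 (edgeR). The factors lay between 0.05 ± 0.35 (Spib) and 0.53 ± 0.46 (Pax5) on the log2 scale, again all positive and none past the threshold (edgeR adjusted p of 0.913 or more). The 95% interval for Pax5 ran from -0.37 to 1.43. With library totals alone all 7 were negative, -0.57 (Spib) to -0.17 (Pax5), and the median of all genes was -0.49. ALY688+LPS mouse 4 had the highest level of its group for every factor, and leaving it out gave negative values for Ebf1 (-0.24), Spib (-0.20) and Bcl11a (-0.17). Spib was also negative without LPS mouse 7 (-0.18) or LPS mouse 8 (-0.06).

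The interaction, the log2 effect of ALY688 with LPS minus that without, passed for 0 of 13476 genes, the percentage called being 0, with 1216 at an unadjusted p below 0.05 (edgeR). Among the factors it ran from -0.37 ± 0.40 for Spib to 0.35 ± 0.41 for Pou2af1, with 95% intervals from -1.15 to 0.42 and from -0.45 to 1.15. The comparisons share groups, ALY688 against PBS and LPS against PBS sharing the PBS mice and those with ALY688+LPS mice sharing these.

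**Figure D2:**
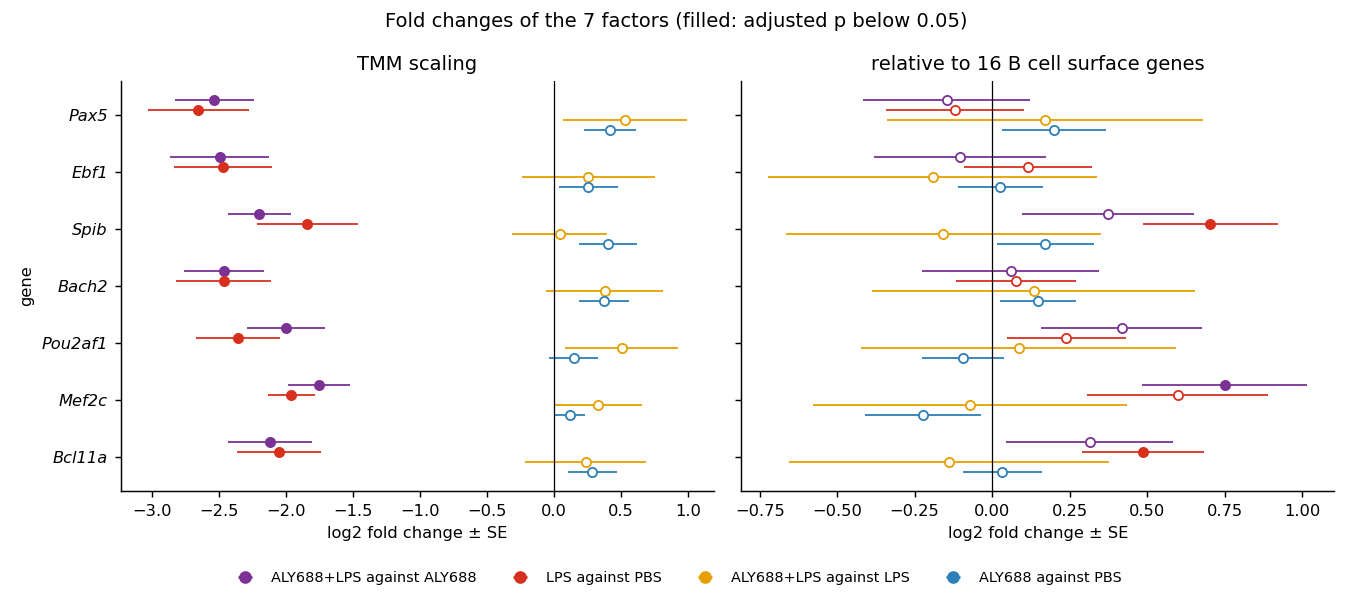
Log2 fold changes of the 7 factors with their SE in 4 comparisons, with TMM scaling on the left and relative to the summed counts of 16 B cell surface genes on the right. Filled points passed an adjusted p below 0.05. On the left all 7 factors are lower with LPS in both settings, and on the right all values lie between -0.22 and 0.75, with Spib and Bcl11a (LPS against PBS) and Mef2c (ALY688+LPS against ALY688) past the threshold.

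The factors were next set against B cell transcripts in place of the whole library. The reference was the summed counts of 16 B cell surface and signalling genes, among them Ms4a1, Cd79a, Cd79b and Cd22, so that a change here is one relative to other B cell messages. These genes themselves were lower in 16 of 16 cases in LPS against PBS, with a median log2 fold change of -2.43. Of the 16, 7 passed as lower with library totals alone, with a median of -1.48. Fcer2a, the low-affinity IgE receptor, was at -3.55, Cr2, the complement receptor of mature B cells, at -3.09, Fcmr, the IgM Fc receptor, at -3.07 and Fcrla at -2.94 on the log2 scale. They were lower in 16 of 16 cases in ALY688+LPS against ALY688 as well, with a median of -2.39. The medians of the factors were -2.36 and -2.20 in the same comparisons.

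Spib was the factor that rose most relative to the surface genes in LPS mice. Its counts made up 14.3%, 10.5%, 9.87% and 10.5% of the surface gene counts in LPS mice 2, 6, 7 and 8, against 5.93%, 6.64% and 8.93% (lowest, median, highest) in PBS mice. All 4 LPS mice lay above all 9 PBS mice, and how many of all genes did so on this scale was not counted. The relative log2 fold change was 0.70 ± 0.22 (edgeR adjusted p = 0.00652). Of all genes tested only 6.68% had a lower value on this scale, where the median gene stood at 2.53. Bcl11a also passed, with 2.50%, 2.91%, 2.14% and 3.08% in LPS mice, against 1.48%, 1.91% and 2.43% in PBS mice, although LPS mouse 7 lay within the PBS range. Its relative log2 fold change was 0.49 ± 0.20 (edgeR adjusted p = 0.0289).

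Mef2c had 5.06%, 6.68%, 10.5% and 8.41% of the surface gene counts in LPS mice, against 3.32%, 4.56% and 9.34% in PBS mice, and did not pass at 0.60 ± 0.29 (edgeR adjusted p = 0.0654). Leaving out PBS mouse 9, it passed at 0.76 ± 0.25 (edgeR adjusted p = 0.00895). The other 4 factors lay between -0.12 ± 0.22 (Pax5) and 0.24 ± 0.19 (Pou2af1) and did not pass. On this scale 87.6% of the 12353 genes passed in either direction, 87.5% as higher and 0.0729% as lower, so that the 2 of 7 factors lie below the background. The 16 reference genes themselves ran from -1.01 to 1.14, a range that holds every factor, with 3 passing as higher and 3 as lower.

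In ALY688+LPS against ALY688 mice, 1 of the 7 passed relative to the surface genes, beside 96.5% of 12266 genes in either direction and 96.4% as higher. It was Mef2c, at 4.84%, 7.72% and 9.48% (lowest, median, highest) of the surface gene counts in ALY688+LPS mice against 3.29%, 4.39% and 5.41% in ALY688 mice, with 0.75 ± 0.27 (edgeR adjusted p = 0.00813). Spib had 0.37 ± 0.28 there and did not pass (edgeR adjusted p = 0.187). The 16 reference genes ran from -1.08 to 0.76 in this comparison, again a range that holds every factor, with 1 passing as higher and 2 as lower. Leaving out ALY688+LPS mouse 4, Spib (0.45 ± 0.20) and Pou2af1 (0.44 ± 0.18) passed too (edgeR adjusted p = 0.0381 and 0.0230). For ALY688 against PBS, ALY688+LPS against LPS and the interaction, none of the factors passed on this scale, beside 0, 0.0157 and 0 percent of all genes.

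The calls on the relative scale were not firm. In LPS against PBS the call of Bcl11a was lost without LPS mouse 6 (edgeR adjusted p = 0.0866) or LPS mouse 8 (0.105). With the globin share of each library as a covariate neither Spib (edgeR adjusted p = 0.147) nor Bcl11a (0.526) passed, while Mef2c did (0.00729). That fit cannot separate the globin share from the group.

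**Figure D3:**
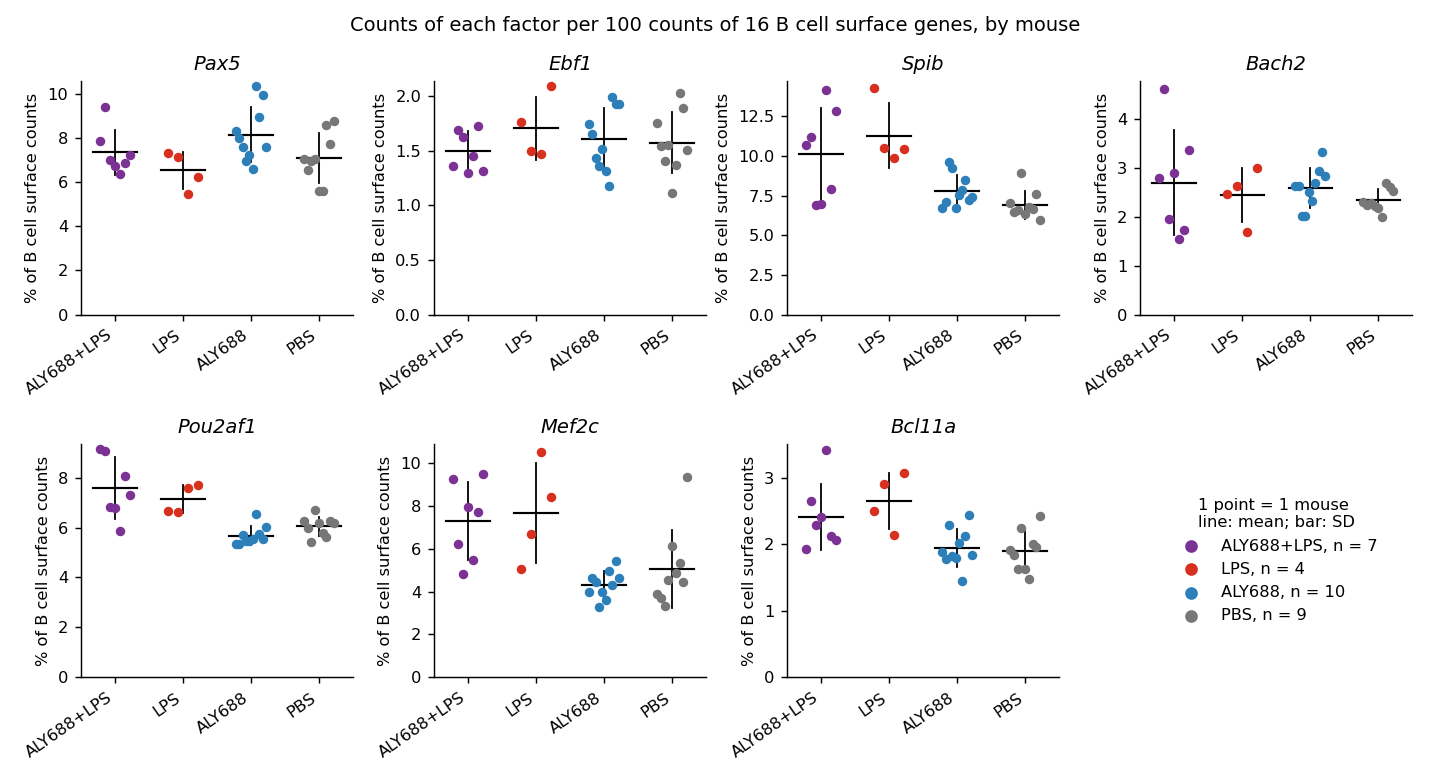
Counts of each factor as a percentage of the summed counts of 16 B cell surface genes in every mouse, by group, with the mean as a line and the SD as a bar. For Spib, all 4 LPS mice (9.87% to 14.3%) lie above all 9 PBS mice (5.93% to 8.93%). The share of all genes that do so was not counted, and 87.5% of genes tested were called higher on this scale.

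A list of 9 close relatives of the factors was read beside them. In LPS against PBS 6 could be tested, of which 4 were higher, 1 lower and 1 did not pass, beside 20.9% of all genes higher and 17.9% lower. Among the ETS genes, Spi1, which encodes PU.1 of myeloid cells and B cells, had 316 ± 53.0 CPM in LPS mice (SD, n = 4) and 79.9 ± 19.3 CPM in PBS mice (n = 9), a log2 fold change of 1.99 ± 0.23 (edgeR adjusted p = 6.21e-06), whereas Spib was lower. Spic, a factor of red pulp macrophages, had 11.5 ± 3.99 CPM in LPS mice and 0.862 ± 0.409 CPM in PBS mice, with 3.69 ± 0.31 (edgeR adjusted p = 4.13e-07). Its PBS level was near the floor of 3 counts, which stood at 0.195 to 0.904 CPM in PBS mice.

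Bach1, the widely expressed relative of Bach2 that represses haem oxygenase, had 95.0 ± 25 CPM in LPS mice and 41.5 ± 14.8 CPM in PBS mice, with a log2 fold change of 1.2 ± 0.25 (edgeR adjusted p = 0.00142). Mef2a rose by 0.45 ± 0.16 (edgeR adjusted p = 0.0343), while Mef2d, at -0.33 ± 0.21, did not pass. Bcl11b, the T cell counterpart of Bcl11a, had 4.93 ± 1.19 CPM in LPS mice and 23.8 ± 9.05 CPM in PBS mice, with -2.27 ± 0.32 (edgeR adjusted p = 4.67e-05). Mef2a and Mef2d were named after their values were seen. Mef2d was positive (0.70) with library totals alone, where Bcl11b no longer passed (-1.26, edgeR adjusted p = 0.0968). When ALY688+LPS was set against ALY688, the same 4 genes were higher, Spi1 at 2.29 ± 0.13 and Bach1 at 1.42 ± 0.10, and Bcl11b (-2.11 ± 0.27) and Mef2d (-0.66 ± 0.12) were lower. Ebf3 had at most 4 counts in a library, Pax8 at most 4 and Ebf4 none.

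Other factors of the B lineage were split. Of 16 tested in LPS against PBS, 11 were lower, 3 higher and 2 did not pass, and the median log2 fold change was -0.80. Foxo1, which drives recombination and homing genes in B and T cells, was at -1.97 ± 0.27 (edgeR adjusted p = 4.00e-05), Ets1 at -1.93 ± 0.32 (0.000185) and Foxp1 at -1.45 ± 0.24 (0.000182). Bcl6, the master factor of germinal centre B cells, which myeloid cells express as well, was higher at 1.30 ± 0.19 (edgeR adjusted p = 7.49e-05). Pou2f2, which encodes a POU partner of OCA-B, was also higher, at 1.25 ± 0.23 (edgeR adjusted p = 0.000499), while Pou2af1 itself was lower. Pou2f1, the other POU gene on the list, went the other way, at -1.05 ± 0.34 (edgeR adjusted p = 0.0212). With library totals alone, 0 of the 16 passed as lower and 4 as higher. Foxo1, Ets1 and Foxp1 then no longer passed (edgeR adjusted p = 0.178, 0.167 and 0.451), and Tcf3, Tcf4, Hhex and Runx1 had positive values. Pou2f1, Pou2f2, Tcf3, Tcf4, Hhex and Runx1 were named after their values were seen. Relative to the surface genes, 15 of these 16 factors were higher in LPS against PBS, a share near the 87.5% of all genes that were higher on that scale.

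Among genes of plasma cells, in which Pax5 and Bach2 are normally silenced, the picture was mixed. Of 5 tested, Xbp1, a factor of secretory cells, was higher in LPS mice at 113 ± 15.7 CPM, against 36.8 ± 8.37 CPM in PBS mice (log2 fold change 1.63 ± 0.18, edgeR adjusted p = 6.21e-06). Jchain was higher too, at 6.59 ± 2.96 CPM in LPS mice against 1.57 ± 0.864 CPM in PBS mice (2.02 ± 0.36, edgeR adjusted p = 0.000346). Irf4 was lower, at -2.06 ± 0.32 (edgeR adjusted p = 0.000112). Prdm1, which encodes BLIMP-1 and is a target of repression by BACH2, was at 0.57 ± 0.33 and did not pass (edgeR adjusted p = 0.184), and Sdc1, named after its values were seen, did not pass either. With library totals alone Irf4 no longer passed (edgeR adjusted p = 0.191), Prdm1 passed as higher (0.0191) and Sdc1 was positive. Xbp1 (1.70 ± 0.11) was again higher and Irf4 (-2.01 ± 0.24) lower in ALY688+LPS against ALY688 mice, and Jchain and Prdm1 did not pass. None of the 3 small Maf genes that encode partners of BACH2 passed in LPS against PBS, their log2 fold changes being 0.32 to 1.32, and both that were tested in ALY688+LPS against ALY688 were higher. All 3 passed as higher in LPS against PBS with library totals alone, and with globin genes removed Maff did (edgeR adjusted p = 0.046).

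**Figure D4:**
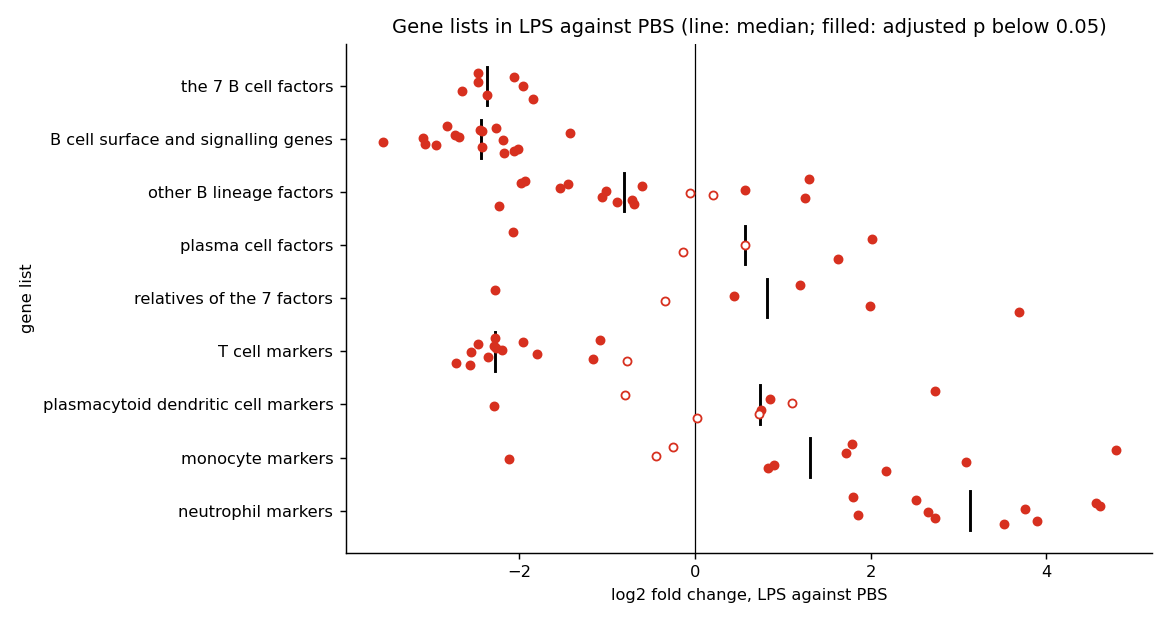
Log2 fold change in LPS against PBS of each tested gene of 9 lists, with the list's median as a line and filled points for an adjusted p below 0.05. The 7 factors lie at -2.65 to -1.84 beside the B cell surface genes (median -2.43), while 4 of the 6 tested relatives on the list and all 10 neutrophil genes are higher.

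Against all genes to which the deposited annotation gives a transcription factor family, the B cell factors stood near the low end in both contrasts across LPS. Of 757 such genes tested in LPS against PBS, counted from the lowest log2 fold change, Pax5 ranked 4, Ebf1 7, Bach2 8, Bcl11a 15, Mef2c 24 and Spib 29. Tcf7 and Bcl11b, both on the list of T cell markers, ranked 3 and 12 in the same comparison, so low ranks were not particular to B cell factors. Pou2af1 has no family in the annotation and no rank. Of 750 tested in ALY688+LPS against ALY688, Pax5 ranked 2, Ebf1 3, Bach2 4, Spib 7, Bcl11a 9 and Mef2c 23. Of the 757, 20.3% were lower and 17.2% higher. Among 39 tested genes of the bZIP family, to which Bach2 belongs, 4 were lower and 17 higher, and among 17 of the ETS family, that of Spib, 6 were lower and 6 higher. Of 349 C2H2 zinc finger genes, the family of Bcl11a, 75 were lower and 28 higher, and of 5 SRF family genes, with Mef2c, 2 were lower and 1 higher. Ebf1 and Pax5 were the only tested genes of their families.

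Markers of other cell types that can carry some of these factors moved with LPS as well. T cell markers, such as Cd5 and Tcf7, were lower for 13 of 14 genes, and their summed level was 120 to 153 CPM in LPS mice and 292 to 605 CPM in PBS mice. Their median log2 fold change was -2.27, beside -2.36 for the factors, and in ALY688+LPS against ALY688 -1.73, beside -2.20. Plasmacytoid dendritic cell markers were higher for 3, lower for 1 and not called for 4 of 8 tested, with sums of 90.3 to 154 CPM in LPS mice and 30.7 to 53.3 CPM in PBS mice. Most of that sum in LPS mice was Bst2, an interferon-inducible gene, at 99.7 ± 36.5 CPM, while Siglech, which defines these cells and was named after its values were seen, had 1.92 ± 1.81 CPM in LPS mice and 1.11 ± 0.975 CPM in PBS mice, and no marker was at 0 in a whole group. Neutrophil markers were higher for 10 of 10, with sums of 4246 to 14702 CPM in LPS mice and 632 to 2390 CPM in PBS mice. Monocyte markers were higher for 7 and lower for 1 of 10, with sums of 1132 to 1445 CPM in LPS mice and 352 to 1566 CPM in PBS mice. NK cell markers were higher for 6 of 8, platelet markers lower for 5 of 10 and erythroid markers called for 0 of 9 in edgeR, where 5 of the 9 changed sign with library totals alone. With that scaling 3 of the 14 T cell markers passed as lower, and it changed the sign of 2 T cell, 2 monocyte, 3 platelet and 1 plasmacytoid dendritic cell markers. Between ALY688+LPS and ALY688 mice, T cell markers summed to 127 to 201 CPM against 330 to 735 CPM and plasmacytoid dendritic cell markers to 79.6 to 416 CPM against 27.0 to 90.3 CPM. Of 8 plasmacytoid dendritic cell markers tested there, 2 were higher, 2 lower and 4 not called, with a median log2 fold change of -0.15. The part of these shifts in the levels of the factors was not tested.

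Between mice of 1 group, the factors moved together. For each of the 21 pairs, log2 CPM was taken as the deviation from the mouse's group mean and correlated across mice. Among the 19 mice without LPS Pearson's r ran from 0.54 (Spib and Mef2c) to 0.95 (Ebf1 and Bach2), with a median of 0.87, and Spearman's rho from 0.51 to 0.96. The permutation p of r was 0.018 or less for every pair, and adjusted over the 21 pairs 0.018 or less. Leaving out the 2 mice farthest from the median, r ran from 0.65 to 0.96.

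Among the 11 mice with LPS r ran from 0.53 (Spib and Mef2c) to 0.97 (Ebf1 and Pou2af1), with a median of 0.87, and rho from 0.45 to 0.95. In 20 of the 21 pairs the adjusted permutation p of r was 0.020 or less. The exception was Spib with Mef2c (permutation p = 0.092, adjusted 0.092), for which r was 0.24 without the 2 mice farthest from the median. By rho, Bach2 with Mef2c did not pass either (permutation p = 0.094, adjusted 0.099), and r of Spib with Bach2 was 0.72, and 0.44 without the 2 farthest mice. These mice share libraries and scaling, and the median r of a factor with all 13475 other genes was 0.04 (Mef2c) to 0.14 (Spib).

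**Figure D5:**
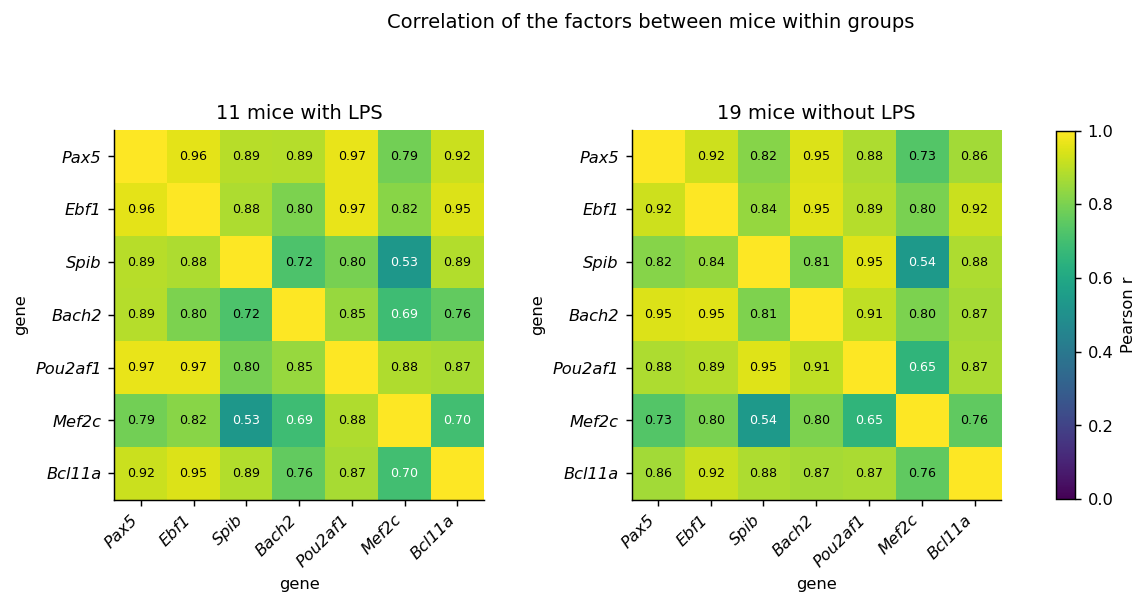
Pearson r between each pair of factors across mice after subtracting the group mean, in 11 mice with LPS on the left and 19 mice without LPS on the right (colour scale 0 to 1). Spib with Mef2c has the lowest r on both sides, 0.53 and 0.54.

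The genes most like each factor were read from the same deviations across all 30 libraries, as a description. Pax5 was most like Cd22 (r = 0.95), Chst3 (0.95) and Ciita (0.95). Ebf1 was most like B3gnt5 (0.96), Scd1 (0.95) and Ms4a1 (0.95), and Pou2af1 most like Fcmr (0.96), Scd1 (0.96) and Cd22 (0.96). Among the genes most like Bcl11a were Cd22 (0.95) and Ebf1 (0.93). Bach2 was most like Pax5 (0.91), Aff3 (0.91) and Gimap6 (0.91), and Spib most like Swap70 (0.93), Ighm (0.92) and Kmo (0.92).

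Mef2c stood furthest from the rest, its nearest genes being Cd55 (0.91), Ralgps2 (0.89) and Fcer2a (0.88). An r of 0.9 or more was found with 31 genes for Pou2af1, 24 for Pax5, 22 for Ebf1, 11 for Bcl11a, 8 for Spib, 4 for Bach2 and 1 for Mef2c. With the mean of the 16 surface genes, r was 0.97 for Pou2af1, 0.95 for Ebf1, 0.94 for Pax5, 0.93 for Bcl11a, 0.89 for Spib, 0.85 for Bach2 and 0.79 for Mef2c.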

How the data were processed

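Messenger RNA captured on poly-T beads was sequenced from blood of 30 mice, with random-primed cDNA, per the labels' protocols, which cover a directional and a non-directional library without saying which was made. The authors deposited raw counts per gene, not normalized, 1 table per mouse, for which the submitters' processing notes name HISAT2 2.0.5 and featureCounts 1.5.0-p3. Build, annotation release and strandedness of counting: not given in the sources used here. Symbols came from GENCODE M21 for 54409 of 54532 IDs. Totals ran from 9554964 to 17338214 counts, and the detection floor of 3 counts covers counting error only.

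Genes passing filterByExpr were TMM-scaled and tested by quasi-likelihood in edgeR 4.0.16 (robust, two-sided) under R 4.3.3, in 5 comparisons, with Benjamini-Hochberg adjustment over all genes tested and a threshold of 0.05. Each fit held only its own groups, and the interaction fit all 4. The SE is the absolute log2 fold change divided by the square root of the F statistic. The 95% intervals are the log2 fold change with the normal quantile times its SE. This quantile takes no account of the degrees of freedom of the F-test, so the intervals are too narrow. For Bach2 in ALY688 against PBS, the interval of 0.008 to 0.745 leaves out 0 at an unadjusted p of 0.0578 (edgeR). The same fits were repeated with each library's size set to its summed counts of 16 B cell surface genes. Alternatives used DESeq2 1.42.0, limma 3.58.1, other scalings and filters, covariates and left-out libraries. A longer MEF2 motif was searched as well and was dropped after its result was seen. Correlations used log2 CPM with a prior count of 2 and 100000 permutations (Python). The procedure was tested on simulated data in which all groups had the same composition apart from the changed genes, so the choice of scaling was not tested there. No pair of libraries within a group agreed within sampling noise (chi-square per degree of freedom at least 8.02), so each counted as 1 replicate.

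The factors and the gene lists were chosen with earlier results of these data known. Named were the 7 factors, up to 4 genes per list with the smallest unadjusted p in LPS against PBS, and for each factor the 3 genes with the highest r, predicted genes left out. Exceptions are stated where they occur. Some genes that this rule names are not reported here.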

Additional observations from a re-analysis of the deposited data

Results flagged for a closer look

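In 28 groups examined (7 factors in 4 groups), the highest or lowest mouse stood apart from the rest of its group in 4 cases, by a gap above the 95% critical value of Dixon's test. Chance gives about 1 in 20 groups when groups are independent. These are not, since all 7 factors were read in the same mice and moved together between them. ALY688+LPS mouse 4 alone gave the cases of Pax5, Spib and Bcl11a in its group, so the count of cases cannot be set against that share. Pax5 reached 53.8 CPM in ALY688+LPS mouse 4, where the next mouse had 26.1 CPM. Spib reached 53.3 CPM in the same mouse, with the next at 30.2 CPM, and Bcl11a 17.7 CPM, with the next at 8.12 CPM. Bcl11a had 13.5 CPM in ALY688 mouse 7, one of the libraries with fewer than 16000 detected genes, where the next lowest ALY688 mouse had 27.4 CPM.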

How the results depend on the processing

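The lower level of all 7 factors in LPS against PBS and in ALY688+LPS against ALY688 kept its direction under the alternatives tried, and the count was 7 in every fit that left out 1 mouse. With library totals alone, 1 factor was lower in LPS against PBS, and over all genes 5597 were higher and 298 lower there, against 2578 and 2208 with TMM. That setting gave 1846 higher and 1204 lower in ALY688+LPS against ALY688, where TMM gave 3236 and 3267. With globin percentage as a covariate 1620 genes were higher in LPS against PBS, in a fit that cannot separate the globin share from the group. Relative to the surface genes, 1 factor was higher in LPS against PBS without a filter on low counts and 1 with the globin covariate, against 2, and leaving out 1 mouse gave 1 to 3. In ALY688+LPS against ALY688 it gave 1 to 3, against 1. Values that had not passed changed sign as follows. In ALY688 against PBS, Pou2af1 was -0.027 without the libraries of few genes, and with the globin covariate Ebf1 was -0.0923, Pou2af1 -0.11, Mef2c -0.0123 and Bcl11a -0.0395. In ALY688+LPS against LPS, library totals gave Pax5 -0.17, Ebf1 -0.40, Spib -0.57, Bach2 -0.30, Pou2af1 -0.17, Mef2c -0.35 and Bcl11a -0.43, and limma-voom gave Ebf1 -0.16 and Bcl11a -0.11. Leaving out 1 mouse gave Ebf1 -0.24 to 0.45, Spib -0.20 to 0.39 and Bcl11a -0.17 to 0.38. The interaction was 0.13 for Spib with the globin covariate and -0.70 for Pou2af1 with library totals, and -0.0102 to 0.49 for Pou2af1 leaving out 1 mouse. Relative to the surface genes in LPS against PBS, Pax5 was 0.0058 with Cd79a and Cd79b as the reference, Ebf1 -0.0636 and Bach2 -0.31 with the globin covariate, and Bach2 -0.0339 to 0.21 leaving out 1 mouse. Bach2 was -0.13 to 0.16 in ALY688+LPS against ALY688. The cause was not tested.

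Mouse numbers did not pair the samples, since same-numbered mice correlated at -0.501 to 0.298 and 0 mice correlated best with their own number. With the replicate block the factors lower numbered 7 in LPS against PBS and 7 in ALY688+LPS against ALY688, and relative to the surface genes Mef2c passed in LPS against PBS (0.70, edgeR adjusted p = 0.0163) and Bcl11a did not (0.55, 0.0521). The 4 LPS mice limit the precision of every comparison that uses them.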
